A study of Mus musculus with 6 samples.

Results

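Ribosome biogenesis genes were taken as 45 named mouse genes of nucleolar rRNA processing, small nucleolar ribonucleoprotein (snoRNP) particles and RNA polymerase I. Every non-control probe of the array that carried 1 of these names was used, which gave 64 probes on 82 spots, of 55681 probes in all. All 45 genes had at least 1 probe, and 44 of them had a probe bright enough to be tested. RNA polymerase I transcribes the rDNA repeats in the nucleolus. Box C/D and box H/ACA snoRNPs guide methylation and pseudouridylation of the transcript, and large assemblies of processing factors then cut and fold it into the small and large ribosomal subunits. As background, erythroid precursors make many ribosomes while they divide and lower this output as they mature.

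The cells were G1E-ER-GATA-1, a mouse erythroid precursor line without GATA-1 of its own, in which GATA-1 fused to the estrogen receptor is switched on by β-estradiol and starts maturation. The Foxo3 siRNA group (3 arrays) received siRNA against Foxo3, a forkhead transcription factor, and the nontargeting siRNA group (3 arrays) received a control siRNA. Both groups were nucleofected at 0 h and at 24 h, both carried ER-GATA-1 that was activated with β-estradiol at 24 h, and RNA was harvested from both at 48 h after 24 h of estradiol. All samples come from this 1 line, so they say nothing of how other erythroid cells behave. Each RNA was labelled with Cy3 and hybridised to a 1-colour Agilent array of 60-base probes. The labels do not call the replicates separate cultures, so p-values measure the spread among these samples, which may be technical.

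Levels below are scaled log2 signals, that is, log2 of the spot intensity minus the 75th percentile of the array, so a negative level is a dim probe and levels of different probes cannot be compared. The Foxo3 probe on the RefSeq mRNA read −0.46, −1.29 and −1.89 with Foxo3 siRNA, against 1.23, 1.28 and 1.12 with nontargeting siRNA. It fell by 2.42 (SE 0.340, limma adjusted p = 0.00542), with −1.67 within slide row 1. The other Foxo3 probe gave 0.25 (adjusted p = 0.259), with all 3 Foxo3 siRNA arrays above all 3 nontargeting arrays. That other probe had the higher mean signal, and would stand for Foxo3 by the rule used for the other genes. Foxo3 is described here by its RefSeq mRNA probe instead. All 13 erythroid marker genes on the array were well above background in at least 1 group. So were 6 of 8 megakaryocyte, 4 of 8 myeloid, 3 of 7 lymphoid and 2 of 10 stromal markers on the array. Pf4, Gp1ba, Gp9, Itga2b, Itgam, Elane, Csf1r, Cd4 and Cd3e were well above background on all 6 arrays. Ly6g, Mpo, Lyz2, Cd8a, Ms4a1, Krt8, Dcn, Cdh5, Col1a1, Pdgfra and Ppbp were well above background on 0 arrays. In such bulk RNA, fewer cells of a kind and less RNA per cell cannot be told apart. Spots well above background numbered 30619, 37532 and 20343 on the Foxo3 siRNA arrays and 31611 to 33513 on the nontargeting arrays, so Foxo3 siRNA replicate 3 stands apart. The 6 arrays lay on 1 slide in a pair of rows. Foxo3 siRNA replicate 1 shared slide row 1 with all 3 nontargeting arrays, and the other 2 Foxo3 siRNA arrays lay alone in slide row 2.

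Ribosome biogenesis transcripts were higher with Foxo3 siRNA for 11 of the 44 tested genes, and 0 were lower (limma, adjusted p under 0.05 over 27031 probes; 22 higher and 0 lower at an unadjusted p under 0.05). On the whole array, 12.1% of the kept probes were higher and 13.3% lower, or 25.4% in either direction. The authors' deposited table, at the same threshold, had 0 of the 44 genes higher and 0 lower (13 higher at an unadjusted p under 0.05) and 2.73% of the kept probes higher. The share of all kept probes at an unadjusted p under 0.05 is not given here, and it can be no smaller than the share at the adjusted threshold. Counts at the unadjusted threshold, here and below, therefore have no array-wide share beside them. The genes that rose were Polr1a, Polr1c, Nhp2, Npm1, Ltv1, Utp15, Pes1, Wdr12, Nop16, Rrp1b and Ddx18. They span the polymerase, the box H/ACA particles, the nucleolar phosphoproteins and the assembly of both subunits. Rises were modest: the log2 fold changes of the 11 genes lay between 0.54 and 1.18, with a median of 0.70.

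Across all 44 genes the median log2 fold change was 0.40 (range −0.06 to 1.18), beside −0.16 over all kept probes. It was above 0 for 40 of the 44 genes and for 38.5% of the kept probes. In 24 genes all 3 Foxo3 siRNA arrays read above all 3 nontargeting arrays, as did 21.4% of the kept probes, and in 0 genes did they all read below, as did 28.0% of the kept probes. Scaling to the array median instead moves every fold change up, to medians of 0.71 for the 44 genes and 0.15 for all kept probes, which by construction leaves the gap of 0.56 between them as it was. With median scaling 20 genes were called higher and 0 lower, beside 14.7% of the kept probes called higher. On that scale 61.5% of the kept probes had a log2 fold change above 0. The gap between the medians depended on the filter. Among probes bright on all 6 arrays the medians were 0.40 (42 genes) and −0.0066 (all such probes), a gap of 0.40. Without a filter they were 0.38 and 0.07, a gap of 0.31.

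**Figure D1:**
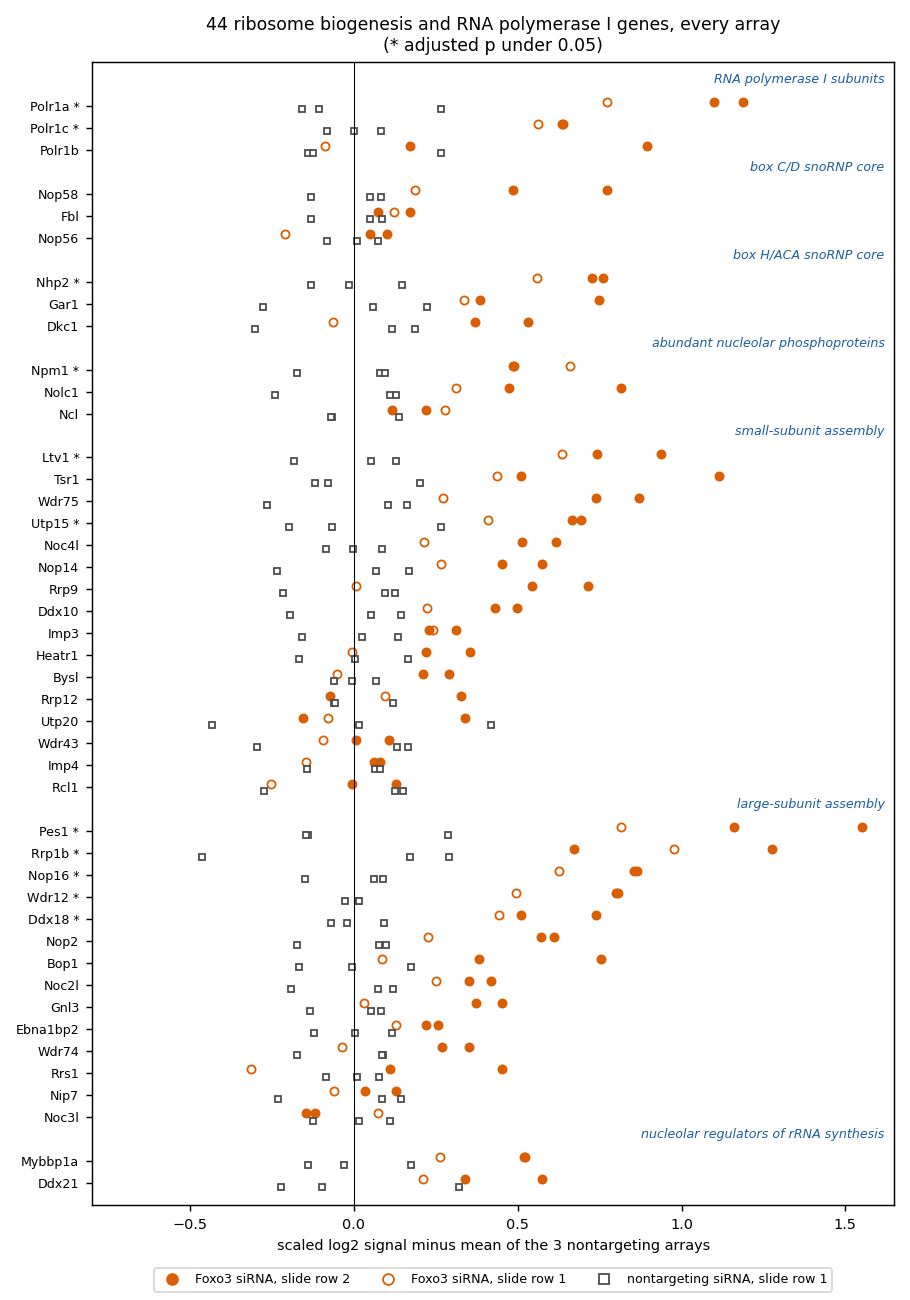
Scaled log2 signal of each of the 44 tested genes on each array, minus the mean of the 3 nontargeting arrays (x axis), with genes grouped by role down the page. Circles are Foxo3 siRNA arrays (filled, slide row 2; open, slide row 1) and squares are nontargeting arrays; in the 11 starred genes (limma adjusted p under 0.05) the circles all lie to the right of the squares.

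**Figure D2:**
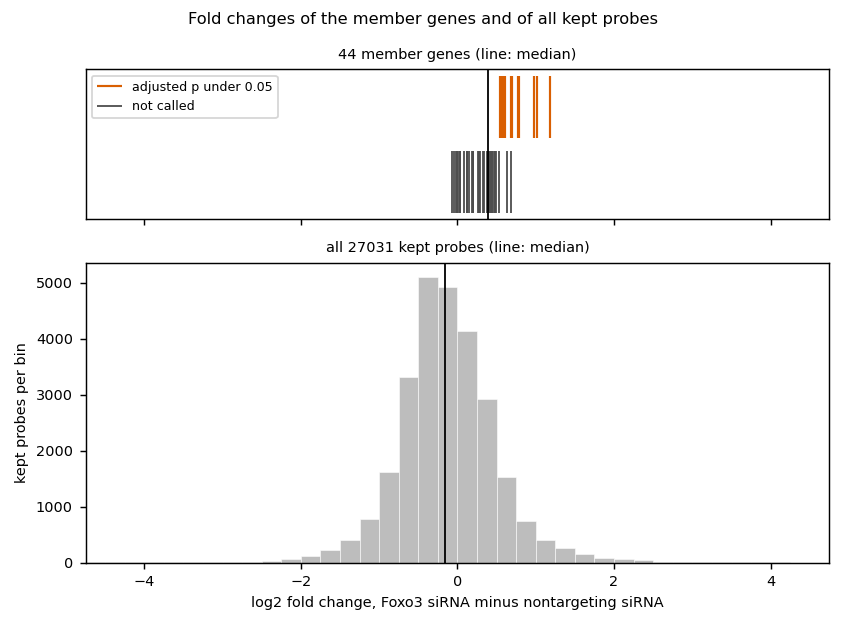
Log2 fold changes, Foxo3 siRNA minus nontargeting siRNA (x axis), of the 44 genes (upper panel, 1 tick per gene, orange for the 11 called) and of all 27031 kept probes (lower panel, probes per bin). Black lines mark the medians, 0.40 for the genes and −0.16 for the probes.

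Whether the 11 calls depend on slide position cannot be told, as 2 of the 3 Foxo3 siRNA arrays lay alone in slide row 2. With slide row as a block, and likewise among the 4 arrays of slide row 1 alone, limma called 0 genes higher and 0 lower (10 higher and 0 lower at an unadjusted p under 0.05 in either fit). The share of kept probes called higher was then 4.14% with the block and 2.09% within row 1. Both fits set Foxo3 siRNA replicate 1 alone against the nontargeting arrays and assume that it varies as they do. The median over the 44 genes was 0.22 there, beside −0.10 over all kept probes. On that array the 11 called genes read 0.41 (Utp15) to 0.98 (Rrp1b) above the nontargeting mean, a description only, since the calls used this array. Single arrays also mattered: the count was 7 without Foxo3 siRNA replicate 2 and 8 without its replicate 3. It was 6 without nontargeting replicate 1 or without nontargeting replicate 2. The shares of kept probes called higher in these 4 fits were 7.14%, 8.42%, 7.38% and 6.71%. Polr1a, Polr1c, Ltv1 and Nop16 remained called with each of the 6 arrays left out.

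RNA polymerase I is represented by 3 subunits, and 2 of them rose, beside 12.1% of all kept probes. Polr1a encodes the largest, catalytic subunit, Polr1b the second largest, which completes the active site, and Polr1c a subunit that RNA polymerase III also uses. Polr1a read 0.41, 0.74 and 0.83 with Foxo3 siRNA, against −0.52, −0.47 and −0.09 with nontargeting siRNA. All 3 Foxo3 siRNA arrays lay above the highest nontargeting array, and the gene rose by 1.02 (SE 0.173, adjusted p = 0.00969), or 2.03-fold. Polr1c (chr17:46381120-46381264, minus strand) read 3.88, 3.95 and 3.95 with Foxo3 siRNA, against 3.24, 3.40 and 3.32 with nontargeting siRNA. Its arrays were tight within each group and did not overlap between them, and it rose by 0.61 (SE 0.104, adjusted p = 0.00979). Polr1b (chr2:128951870-128951929, plus strand) read −0.95, 0.04 and −0.69 with Foxo3 siRNA, against −0.998, −0.59 and −0.98 with nontargeting siRNA. Here the groups overlapped and 1 Foxo3 siRNA array set the mean apart, with a log2 fold change of 0.33 (SE 0.271, adjusted p = 0.375) that became −0.09 in slide row 1.

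Polr1a was read by 2 probes whose positions lie 24358 bases apart on mouse build mm9, and their sequences are shown because they differ in call. The brighter, on the RefSeq mRNA, is at chr6:71929251-71929310 (plus strand), and the dimmer, on an Ensembl transcript, at chr6:71904893-71904952 (plus strand).
Polr1a, RefSeq probe: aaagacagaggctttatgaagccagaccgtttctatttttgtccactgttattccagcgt
Polr1a, Ensembl probe: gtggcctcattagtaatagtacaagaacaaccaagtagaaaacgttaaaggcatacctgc
The Ensembl probe read −2.62, −1.63 and −1.62 with Foxo3 siRNA, against −2.36, −2.70 and −2.75 with nontargeting siRNA. Replicate 1 of Foxo3 siRNA fell inside the nontargeting range there, and the log2 fold change was 0.65 (SE 0.292, adjusted p = 0.139). It passed the background mark on 2 of 3 arrays with Foxo3 siRNA, so the rise of Polr1a rests on its RefSeq probe. No exon annotation on mm9 was used here, so probes are placed by coordinates only.

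Of the snoRNP core genes, 1 of 3 box H/ACA genes and 0 of 3 box C/D genes rose, beside 12.1% of all kept probes. A difference between the classes was not tested. Nhp2, a box H/ACA protein that binds the guide RNA, read 4.89, 5.06 and 5.09 with Foxo3 siRNA, against 4.199, 4.31 and 4.48 with nontargeting siRNA. Its groups did not overlap, and it rose by 0.68 (SE 0.124, adjusted p = 0.0120; chr11:51436872-51436931, plus strand). Without nontargeting replicate 2 the adjusted p of Nhp2 was 0.0516. Gar1, another protein of the same particle, gave 0.49 (adjusted p = 0.0903) with groups that did not overlap. Dkc1, the pseudouridine synthase itself, gave 0.28 (adjusted p = 0.323). Of the box C/D proteins, the scaffold Nop58 gave 0.48 (adjusted p = 0.0819), also with groups that did not overlap. The methyltransferase fibrillarin (Fbl) gave 0.12 (adjusted p = 0.417) and Nop56 −0.02 (adjusted p = 0.909). The 3 probes of Nop56 lay between −0.07 and 0.02.

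Among the abundant nucleolar phosphoproteins, Npm1 rose, and Nolc1 and Ncl did not pass the test. Npm1 (nucleophosmin), a histone and ribosome chaperone of the outer nucleolus, read 6.69, 6.52 and 6.52 with Foxo3 siRNA, against 5.86, 6.11 and 6.13 with nontargeting siRNA. The groups did not overlap on this probe, its brightest, and it rose by 0.54 (SE 0.126, adjusted p = 0.0253; chr11:33056689-33056991, minus strand). Of its 5 kept probes 4 were called higher, with log2 fold changes between 0.54 and 0.67, and the uncalled probe gave 0.32 (adjusted p = 0.113). Npm1 has many processed pseudogenes, which a 60-base probe may also bind, so its value is uncertain. The call on the brightest probe was lost on leaving out any array but nontargeting replicate 3 (adjusted p 0.0541 to 0.0676). Nolc1, a chaperone of snoRNPs, gave 0.53 (adjusted p = 0.0699). Nucleolin (Ncl), which binds nascent pre-rRNA, gave 0.20 (adjusted p = 0.214), and its dimmer probe gave −0.20 (adjusted p = 0.593).

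In the small-subunit group, 2 of 16 tested genes rose and 0 fell, a share near the 12.1% of all kept probes that were higher. The median log2 fold change was 0.32, with a range of −0.04 to 0.77. Ltv1, which escorts the late pre-small subunit out of the nucleus in yeast, read 2.70, 3.00 and 2.80 with Foxo3 siRNA, against 1.88, 2.19 and 2.11 with nontargeting siRNA. The groups were well separated, and it rose by 0.77 (SE 0.139, adjusted p = 0.0117; chr10:12898483-12898542, minus strand). Utp15, of the complex that links polymerase I transcription to early processing, read −0.89, −0.63 and −0.60 with Foxo3 siRNA, against −1.49, −1.03 and −1.37 with nontargeting siRNA. Foxo3 siRNA replicate 1 and nontargeting replicate 2 came close to each other without overlapping, and Utp15 rose by 0.59 (SE 0.161, adjusted p = 0.0412; chr13:99017780-99017839, minus strand). Its call was lost without Foxo3 siRNA replicate 2 or 3 and without nontargeting replicate 1 or 3 (adjusted p 0.0945 to 0.113).

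Several small-subunit genes lay just outside the threshold. Tsr1, a late GTPase-like assembly factor, gave 0.69 (adjusted p = 0.0549), Noc4l 0.45 (adjusted p = 0.0594) and Wdr75, of the same early complex as Utp15, 0.63 (adjusted p = 0.0636). In all 3 of these the groups did not overlap, and that also held for Nop14 (0.43), Ddx10 (0.38) and Imp3 (0.26). The U3 snoRNP protein Rrp9 (0.42), Heatr1 (0.19), Bysl (0.15), Rrp12 (0.12) and Utp20 (0.03) had overlapping groups. So did Wdr43 (0.01), Imp4 (−0.0024) and Rcl1 (−0.04). A dimmer probe of Wdr43 gave 0.41 (adjusted p = 0.133), with groups that did not overlap. The 17th gene, Utp18, was well above background on 0 of 6 arrays and has no fold change.

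Tsr1 was read by 2 probes whose positions overlap by 56 bases, shown with the bases that differ in capitals. They are at chr11:74722409-74722468 and chr11:74722413-74722472 on mm9, both on the plus strand.
Tsr1, probe at 74722409: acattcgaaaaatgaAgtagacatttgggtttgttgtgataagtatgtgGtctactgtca
Tsr1, probe at 74722413: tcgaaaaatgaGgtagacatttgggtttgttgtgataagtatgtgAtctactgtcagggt
The first gave 0.51 (adjusted p = 0.143) and the second the 0.69 above. With 2 mismatches over nearly the same stretch, they are not separate readings of the gene.

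Large-subunit assembly held the most calls, with 5 of 14 genes higher and 0 lower, beside 12.1% and 13.3% of all kept probes. The median was 0.37, with a range of −0.06 to 1.18. The roles differ in size, and a difference between them was not tested. Pes1, Wdr12 and Bop1 form the PeBoW complex, which is needed to process the precursor of the large-subunit rRNAs. Pes1 read 1.00, 1.74 and 1.35 with Foxo3 siRNA, against 0.04, 0.47 and 0.04 with nontargeting siRNA. No nontargeting array reached the lowest Foxo3 siRNA array, and it rose by 1.18 (SE 0.223, adjusted p = 0.0136), or 2.26-fold, the largest change among the 44 genes. Wdr12 read 2.29, 2.60 and 2.60 with Foxo3 siRNA, against 1.81, 1.77 and 1.81 with nontargeting siRNA. The nontargeting arrays agreed closely, and Wdr12 rose by 0.70 (SE 0.126, adjusted p = 0.0115). Bop1, their partner, gave 0.41 with overlapping groups (SE 0.196, adjusted p = 0.157). The call of Pes1 was lost without nontargeting replicate 1 (adjusted p = 0.0529) and that of Wdr12 without nontargeting replicate 2 (adjusted p = 0.0503).

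Both Pes1 and Wdr12 have a second probe, printed here because the calls of these genes rest on more than 1 sequence. The Pes1 probes are 6645 bases apart on mm9, at chr11:3879948-3880007 (brighter) and chr11:3873303-3873362, plus strand. Those of Wdr12 are 443 bases apart, at chr1:60134982-60135040 (brighter) and chr1:60134539-60134598, minus strand.
Pes1, brighter probe: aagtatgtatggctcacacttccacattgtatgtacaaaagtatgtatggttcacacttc
Pes1, dimmer probe: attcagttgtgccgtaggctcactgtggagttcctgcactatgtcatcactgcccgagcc
Wdr12, brighter probe: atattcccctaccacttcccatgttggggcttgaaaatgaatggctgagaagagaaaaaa
Wdr12, dimmer probe: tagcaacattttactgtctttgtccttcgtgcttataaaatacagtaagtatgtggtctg
The dimmer Pes1 probe read 0.36, 0.29 and 0.29 with Foxo3 siRNA, against −0.10, −0.04 and −0.17 with nontargeting siRNA. It rose by 0.42 (SE 0.102, adjusted p = 0.0301), less than the brighter probe but with little spread, so the direction for Pes1 is the same on both probes and the size is not. The dimmer Wdr12 probe rose by 0.79 (SE 0.187, adjusted p = 0.0269).

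Ddx18, a nucleolar RNA helicase, read 2.82, 2.88 and 3.11 with Foxo3 siRNA, against 2.30, 2.35 and 2.47 with nontargeting siRNA. All Foxo3 siRNA arrays lay above all nontargeting arrays, and it rose by 0.56 (SE 0.125, adjusted p = 0.0222). Its other probe overlaps this one by 58 bases and rose by 0.69 (SE 0.119, adjusted p = 0.0102). Their 4 differing bases are in capitals below, at chr1:123450472-123450531 and chr1:123450470-123450529 (mm9, minus strand).
Ddx18, probe at 123450472: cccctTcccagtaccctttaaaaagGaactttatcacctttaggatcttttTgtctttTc
Ddx18, probe at 123450470: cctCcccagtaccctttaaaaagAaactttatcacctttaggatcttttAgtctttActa
The calls of the 2 probes therefore count as 1 reading of Ddx18. On the brighter probe the call was lost without Foxo3 siRNA replicate 2 or 3 and without nontargeting replicate 1 or 2 (adjusted p 0.0575 to 0.0777).

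Nop16, a pre-60S factor whose yeast form binds large-subunit precursors, read 0.71, 0.94 and 0.93 with Foxo3 siRNA, against −0.07, 0.17 and 0.14 with nontargeting siRNA. The groups lay far apart for their spread, and it rose by 0.78 (SE 0.128, adjusted p = 0.00864; chr13:54686644-54686703, minus strand), the smallest adjusted p among the 44 genes. Rrp1b, a nucleolar protein that also binds chromatin, read −1.66, −1.36 and −1.97 with Foxo3 siRNA, against −2.35, −2.47 and −3.10 with nontargeting siRNA. It is a dim probe with wide spread, past the background mark on 2 of 3 arrays with Foxo3 siRNA, and rose by 0.98 (SE 0.248, adjusted p = 0.0336; chr17:32193829-32193888, plus strand). Leaving out any array but Foxo3 siRNA replicate 3 ended the call of Rrp1b (adjusted p 0.0539 to 0.0906). The other large-subunit genes did not pass the test. The rRNA methyltransferase Nop2 (0.47, adjusted p = 0.0642), Noc2l (0.34) and Ebna1bp2 (0.20) had groups that did not overlap. Nucleostemin (Gnl3, 0.28), Wdr74 (0.20), Rrs1 (0.08), Nip7 (0.03) and Noc3l (−0.06) had groups that did.

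The regulators Mybbp1a, a nucleolar MYB-binding protein, and Ddx21, a helicase active at rDNA, gave 0.44 (adjusted p = 0.0610) and 0.37 (adjusted p = 0.160). The Mybbp1a groups did not overlap and those of Ddx21 did. A second Ddx21 probe gave −0.06 (adjusted p = 0.799). Over the 33 genes that were not called, the median log2 fold change was 0.28 and 11 had an unadjusted p under 0.05. In 13 of the 33 the groups did not overlap, with Foxo3 siRNA higher in all 13. Over all kept probes, called ones included, such separation was seen for 21.4% with Foxo3 siRNA higher and for 28.0% with it lower.

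Several kept probes were available for 12 of the 44 genes, and the probes of 10 of them shared 1 call. All probes of Ddx18, Pes1 and Wdr12 were called higher, those of 7 genes were all uncalled, and Npm1 and Polr1a had probes of both kinds. No gene had probes called in opposite directions. The probes of Pes1 lay between 0.42 and 1.18 and those of Ebna1bp2 between 0.12 and 0.68. The dimmest Ebna1bp2 probe read −2.70, −2.25 and −0.54 with Foxo3 siRNA, against −2.78, −2.17 and −2.57 with nontargeting siRNA, so Foxo3 siRNA replicate 3 alone set the higher value (SE 0.542, adjusted p = 0.359).

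**Figure D3:**
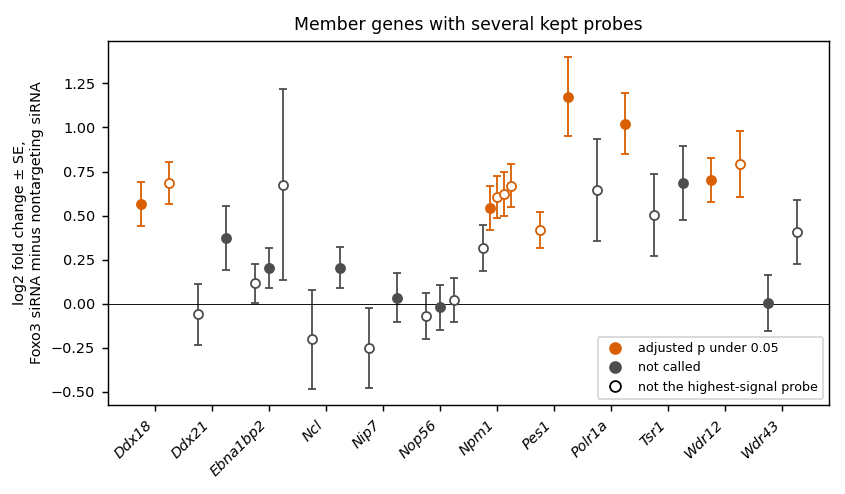
Log2 fold change, Foxo3 siRNA minus nontargeting siRNA, with its limma standard error as bars (y axis) for every kept probe of the 12 genes that have several (x axis). Filled points are the highest-signal probe and orange points have an adjusted p under 0.05; the 2 Pes1 probes lie at 1.18 and 0.42, both called, and 4 of the 5 Npm1 probes are called.

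The shift of the 44 genes can be read on single arrays. Set against the nontargeting mean, their median was 0.22, 0.50 and 0.46 on Foxo3 siRNA replicates 1 to 3, and −0.15, 0.08 and 0.09 on the nontargeting arrays. The Foxo3 siRNA arrays were all higher, the lowest of them being the one in slide row 1. Over all kept probes the same median was −0.10, −0.11 and −0.21 with Foxo3 siRNA, and between −0.01 and 0.01 on the nontargeting arrays. Of the 44 genes, 32, 42 and 41 read above the nontargeting mean on Foxo3 siRNA replicates 1 to 3. Slide row and siRNA cannot be told apart for replicates 2 and 3, which had no nontargeting array beside them. Foxo3 siRNA replicate 3, with the fewest bright spots, gave a median between those of the other replicates, and 57 of the 64 probes were well above background on it, against 61 or 62 on the nontargeting arrays.

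**Figure D4:**
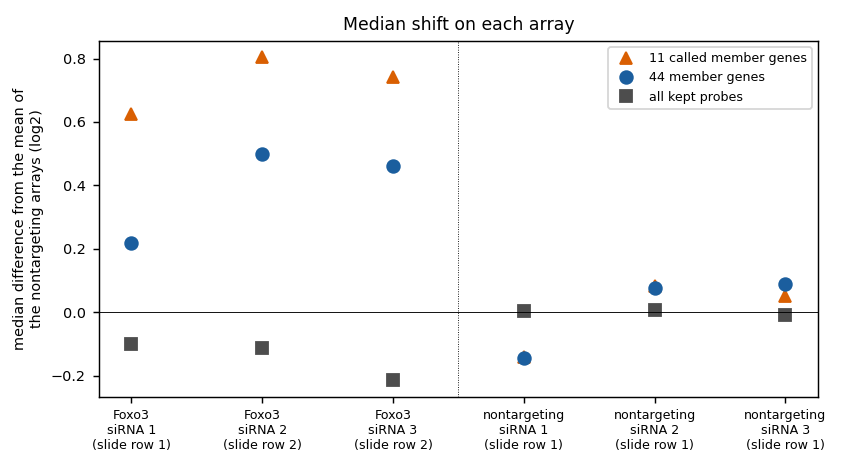
Median difference from the mean of the nontargeting arrays on each of the 6 arrays (y axis, log2), for the 11 called genes (triangles), all 44 genes (circles) and all kept probes (squares). The circles read 0.22, 0.50 and 0.46 on the Foxo3 siRNA arrays and −0.15 to 0.09 on the nontargeting arrays, while the squares stay between −0.21 and 0.01.

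The start sites of the genes were looked at because many of these genes moved the same way. RefSeq windows (build GRCm38.p6, 250 bases before to 50 bases after the start) were on hand for 40 of the 45 genes, in 44 windows, but not for Rrp12, Bop1, Npm1, Fbl and Rrs1. Polr1a, Pes1 and Ltv1 are printed, as the called polymerase subunit with the larger rise and the largest rises in large- and small-subunit assembly. Capitals mark motif matches on either strand. The windows are chr6:71908803-71909102 (plus strand), chr11:3963725-3964024 (plus strand) and chr10:13193088-13193387 (minus strand).
Polr1a, start site window: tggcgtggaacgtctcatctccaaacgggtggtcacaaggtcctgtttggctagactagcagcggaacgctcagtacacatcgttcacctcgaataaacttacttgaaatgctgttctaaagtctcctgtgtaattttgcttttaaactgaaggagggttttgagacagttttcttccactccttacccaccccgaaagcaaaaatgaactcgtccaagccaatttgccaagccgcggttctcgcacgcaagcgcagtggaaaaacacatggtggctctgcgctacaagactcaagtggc
Pes1, start site window: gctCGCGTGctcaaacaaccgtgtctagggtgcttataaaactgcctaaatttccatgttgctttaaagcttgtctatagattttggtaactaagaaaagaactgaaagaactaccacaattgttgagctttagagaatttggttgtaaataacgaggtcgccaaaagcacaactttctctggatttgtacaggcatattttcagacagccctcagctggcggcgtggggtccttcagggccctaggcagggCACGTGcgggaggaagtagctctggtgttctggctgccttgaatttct
Ltv1, start site window: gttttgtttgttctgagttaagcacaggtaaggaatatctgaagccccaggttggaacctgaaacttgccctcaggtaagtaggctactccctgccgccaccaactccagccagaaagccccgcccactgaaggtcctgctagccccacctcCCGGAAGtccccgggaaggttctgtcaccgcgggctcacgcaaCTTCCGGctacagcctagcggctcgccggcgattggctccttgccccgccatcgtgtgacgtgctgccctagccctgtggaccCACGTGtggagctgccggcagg
The Pes1 window holds CACGTG at position 3 from its start site and CACGCG, on the other strand, at −247. The Ltv1 window holds CACGTG at 29 and CCGGAAG at −98 and −55, and none of the searched motifs is in the Polr1a window.

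Motifs were searched on both strands: CACGTG, the E-box that MYC and MAX bind, its variant CACGCG, the ETS-type site CCGGAAG and the forkhead core GTAAACA. None of the 4 contains another. CACGTG was present in 9 of the 44 windows (20.5%), beside 7.15% of all 32851 windows and 7.84% of the 21263 windows of protein-coding genes. CACGCG was present in 29.5% of the windows of these genes, beside 9.27% of all and 12.1% of protein-coding windows. CCGGAAG was present in 36.4%, beside 8.86% and 11.6%. GTAAACA was present in 1 window, that of Rrp1b (2.27%), beside 3.65% and 3.01%. The windows are also richer in G and C, with a median of 59.3%, beside 52.7% for all and 56.3% for protein-coding windows. Among the 10 called genes with a window, CACGTG was present in 2, CACGCG in 5, CCGGAAG in 3 and GTAAACA in 1. These are matches of letters in a window and say nothing about binding in these cells.

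Other genes of the pathway were listed apart from the 45. Of 108 other tested ribosome biogenesis genes, 25 rose and 1 fell, with a median log2 fold change of 0.23, beside 12.1% and 13.3% of all kept probes. In slide row 1 alone 1 rose and 0 fell, beside 2.09% of kept probes higher there, and with slide row as a block 2 rose and 0 fell, beside 4.14% (limma). The counts of the lists below are to be read against the same 12.1% and 13.3%. Without 1 array the number that rose was 7 (Foxo3 siRNA replicate 2), 15 (Foxo3 siRNA replicate 3), 10, 8 and 15 (nontargeting replicates 1, 2 and 3). In the same order, 7.14%, 8.42%, 7.38%, 6.71% and 8.39% of kept probes were higher. The number that fell lay between 0 and 2.

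Of 11 other polymerase I subunits and initiation factors, 4 rose and 0 fell (median 0.21). Cd3eap, a polymerase I subunit, read 1.78, 1.30 and 1.15 with Foxo3 siRNA, against 0.30, 0.36 and 0.28 with nontargeting siRNA. Its groups lay far apart, slide row 1 included (1.46 there, adjusted p = 0.0322), and it rose by 1.09 (adjusted p = 0.00854). Polr1e, the subunit that pairs with it, rose by 0.96 (adjusted p = 0.0229), the small subunit Znrd1 by 0.64 and Taf1d, of the promoter selectivity factor, by 0.55. The calls of Polr1e and Taf1d were lost on leaving out 1 array (Foxo3 siRNA replicate 2 or nontargeting replicate 2 for both, Foxo3 siRNA replicate 3 or nontargeting replicate 1 for Polr1e, nontargeting replicate 3 for Taf1d), with adjusted p between 0.0511 and 0.0742. The initiation factor Rrn3 gave 0.21 (adjusted p = 0.152). Ubtf, which bends rDNA at promoters, gave −0.23 on its brightest probe (adjusted p = 0.315, and 0.08 with median scaling) and rose by 0.69 on another (adjusted p = 0.0112), so its direction depends on the probe.

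Of 13 other snoRNP genes 6 rose and 0 fell (median 0.39), among them Naf1, an assembly chaperone of box H/ACA particles (0.82, adjusted p = 0.00445), Znhit3 (0.92), Nop10 (0.58), a core protein of the same particles as Nhp2, and Pih1d1 (0.46). Of 46 other large-subunit genes 8 rose and 0 fell (median 0.21), among them Sdad1 (0.93), Mrto4 (0.86), Rpf2 (0.76), which brings in the 5S particle, and Las1l (0.64). Of 38 other small-subunit genes 7 rose (median 0.17), among them Nol6 (0.99), Wdr36 (0.77) and Nob1 (0.55), the nuclease that makes the end of the 18S rRNA, while the kinase Riok3 fell by 0.58 (adjusted p = 0.0134). Leaving out 1 array ended the calls of Nop10, Nob1, Nol6, Sdad1, Mrto4, Las1l, Pih1d1 and Riok3 at least once (adjusted p up to 0.0923), and not those of Naf1, Znhit3, Rpf2 and Wdr36. With median scaling Riok3 was at −0.27 (adjusted p = 0.524).

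Subunits of the other nuclear RNA polymerases also rose. Of 11 polymerase III subunits 4 rose and 0 fell (median 0.32), among them Polr3g at 0.93 (adjusted p = 0.00861), Polr3e at 0.92 and Polr3k at 0.55. Of 8 polymerase II subunits 2 rose, Polr2d (1.12, adjusted p = 0.00896) and Polr2b (0.62), and the largest subunit Polr2a fell by 0.55 (adjusted p = 0.0351). Among 5 subunits shared by these enzymes, Polr2k (0.73) and Polr2f (0.68) rose, and Polr2h (0.32) and Polr2e (−0.39) did not pass the test. The calls of Polr2a, Polr2b, Polr3e and Polr3k were lost on leaving out single arrays (adjusted p up to 0.111). With median scaling Polr2a was at −0.24 (adjusted p = 0.598).

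Regulators of rRNA synthesis were lower where they were called: 5 of 13 fell and 0 rose, with a median of −0.26. Tsc1, a brake on mTORC1 signalling, read 2.66, 2.47 and 2.44 with Foxo3 siRNA, against 3.53, 3.53 and 3.79 with nontargeting siRNA. No array of one group came near the other, and it fell by 1.09 (SE 0.129, adjusted p = 0.00342; −0.95 within slide row 1, adjusted p = 0.0688). Mdm2, which limits p53, fell by 0.87 (adjusted p = 0.00626), Mxd4, a MAX partner that opposes MYC, by 0.85 (adjusted p = 0.00685) and Rb1, which restrains Ubtf, by 0.66 (adjusted p = 0.0100). The calls of Mdm2, Mxd4 and Rb1 were lost with median scaling, at −0.56, −0.54 and −0.35 (adjusted p 0.140 to 0.401), and within slide row 1 (adjusted p 0.0852 to 0.143). Myc itself read 1.48, 2.00 and 2.05 with Foxo3 siRNA, against 1.14, 1.75 and 2.21 with nontargeting siRNA. Its groups overlapped fully (0.14, adjusted p = 0.720), and the sign turned in slide row 1 (−0.22) and without nontargeting replicate 1 (−0.13).

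**Figure D5:**
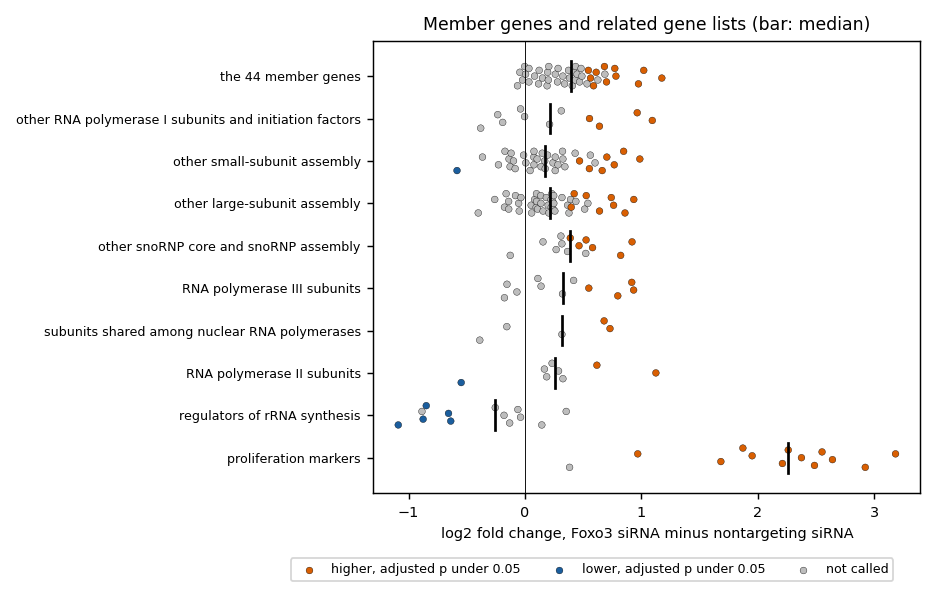
Log2 fold change, Foxo3 siRNA minus nontargeting siRNA (x axis), of every tested gene in the 44 ribosome biogenesis and polymerase I genes and in the related lists (rows); black bars are medians. Orange and blue points are genes called higher and lower at an adjusted p under 0.05; the medians are 0.40 for the 44 genes, −0.26 for regulators of rRNA synthesis and 2.26 for proliferation markers.

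Proliferation markers also rose. Of 13 tested markers 12 rose and 0 fell, with a median of 2.26, among them Birc5 (3.18), Cdk1 (2.92), Ccna2 (2.64) and Plk1 (2.49), while Pcna gave 0.38 (adjusted p = 0.0761). The summed linear level of the list, in units of the array's 75th percentile, was 201 to 239 with Foxo3 siRNA and 55.0 to 58.0 with nontargeting siRNA, and Aurkb was well above background on 0 arrays. Within slide row 1 the rises were 3.097 for Birc5 and 2.95 for Cdk1 (adjusted p = 0.0204 for both), while Mcm2, called in the full comparison, gave 0.71 (adjusted p = 0.105). Their part in the rises of the ribosome biogenesis genes was not tested. Of the 13 erythroid markers, Rhag (1.40) and Tfrc (0.60) rose and Tal1 fell by 0.41, and the other 10 did not pass the test. The summed erythroid level was 3274 to 4199.5 with Foxo3 siRNA and 4514 to 4924 with nontargeting siRNA. Being linear, this sum rests mostly on its brightest genes, Hba-a1 (−0.46, adjusted p = 0.0673), Alas2 (−0.41, adjusted p = 0.0527) and Ahsp (−0.22, adjusted p = 0.218). Over the 13 erythroid genes the median log2 fold change was 0.11, and it was above 0 for 7 of them. Of 6 tested megakaryocyte markers, Itga2b (1.26) and Gp1ba (0.59) rose and 0 fell.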

How the data were processed

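Spot intensity values came from Agilent Feature Extraction 10.7.3.1, per the file headers, with background subtraction, detrending within the array, and surrogates for signals not above background. Normalization between arrays is not recorded. The authors deposited these intensity values with limma results for each spot (log2 fold change, adjusted p-value and raw p-value), per the submitters' processing notes, with normalization not given in the sources used here and base 2 read from a comparison with the signals.

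Spots with outlier flags were set to missing, log2 signals were scaled to the 75th percentile of each array, and spots of a probe were averaged. A probe was kept if every array of 1 group or the other, 3 in each, marked it well above background (27031 of 55681). A probe counted where most of its spots carried that mark. Groups were compared with limma 3.58.1 (lmFit, eBayes, two-sided, no covariates) in R 4.3.3, adjusted over all kept probes by the Benjamini-Hochberg method at 0.05. Each gene but Foxo3 is represented by its kept probe of highest mean signal. Adjusted p-values are limma's unless credited to the authors. Where a probe has several spots, the authors' log2 fold change is the mean over its spots. The authors' p-value and adjusted p are then the smallest among those spots. Of the 64 probes, 60 matched RefSeq (GRCm38.p6) by accession and 4 by symbol. Probe positions are those of the array files, on mm9.

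Values on every array are given for called genes, polymerase I subunits and genes whose probes differ in call. Up to 4 genes of each other list with the smallest adjusted p are named, plus Myc, Ubtf, Rrn3 and Foxo3. Some genes that met this rule are not reported here. Genes of the marker lists named beyond these were chosen after their values were seen. The genes, lists and motifs were chosen with earlier results of these data known. Alternatives were other scalings, normexp background correction with an offset of 50, filters on dim probes, 1 feature per gene, blocks, slide row 1 and leaving out each array. The script was tested on simulated data. The 3 arrays per group limit the precision.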

Additional observations from a re-analysis of the deposited data

How the results depend on the processing

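The number of ribosome biogenesis genes called higher (11) was 20 with median scaling, 20 of 42 when a probe had to be bright on all 6 arrays, and 0 without any filter on dim probes, with slide row as a block, in slide row 1 alone and in the authors' deposited table. Those 4 settings gave 13, 10, 10 and 13 genes higher at an unadjusted p under 0.05. Without a filter more probes were tested (55681), but the count at an unadjusted p under 0.05 was also lower, 13 against 22 (limma). The cause of the losses was not tested in any of these settings. Without 1 array the number called higher lay between 6 and 14, beside 6.71% to 10.4% of kept probes. No alternative called any of them lower. Their median (0.40) was 0.71 with median scaling, 0.22 with the slide row block or in row 1, and 0.30 to 0.50 without 1 array. With the filter on all 6 arrays it stayed at 0.40, while the median over all probes was −0.0066 in place of −0.16. With quantile normalization, normexp and 1 feature per gene the counts were 11, 12 and 11. In the same order, 12.2%, 11.8% and 13.6% of the tested probes were called higher.

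Other ribosome biogenesis genes higher (25) numbered 0 without a filter and in the authors' deposited table, 2 with the slide row block, 1 in row 1, and 7 to 26 without 1 array. Those lower (1) numbered 2 with quantile normalization, 3 with normexp, 2 with the filter on all 6 arrays, 0 with median scaling, without a filter, with the slide row block, in row 1 and in the authors' deposited table, and 0 to 2 without 1 array. Foxo3 stayed at −2.42 without a filter, with adjusted p = 0.0616. Signs turned for Polr1b (−0.088, slide row block and row 1), Myc (−0.22 in both, −0.13 without nontargeting replicate 1) and Ubtf (0.077, median scaling).

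Calls over all kept probes that were higher made up 47.7% of calls, against 77.4% with median scaling, 65.4% without a filter, 59.2% with the slide row block and 65.5% in the authors' deposited table. With the replicate block 16 of the 44 genes were called higher, beside 11.5% of the kept probes. Of these 16 genes 10 were among the 11. Npm1 was lost and Mybbp1a, Nolc1, Nop14, Nop2, Tsr1 and Wdr75 were gained. Deviations of same-numbered arrays correlated at 0.16, −0.31 and 0.11 for numbers 1, 2 and 3. With 3 arrays per group, these values cannot tell whether such arrays share more than a number. Dim probes such as those of Rrp1b and Utp18 limit what can be read.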

Other observations

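The authors' deposited table gave Polr1a 0.96 (adjusted p = 0.0797), Polr1c 0.60 (adjusted p = 0.0895), Nop16 0.76 (adjusted p = 0.0984), Pes1 1.07 (adjusted p = 0.109) and Rrp1b 0.62 (adjusted p = 0.371). The direction was the same in the authors' deposited table as in the limma fit here for these 5 genes. Polr1c has 10 spots, so its value is their mean and its adjusted p the smallest of theirs. Across all kept probes the authors' deposited log2 fold changes and those computed here correlated at 0.962, over probes that share the same 6 arrays.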
